A study of Mus musculus with 24 samples.

Results

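The comparison described here is that of brains from Prxl2a knockout (KO) mice with brains from wild-type (WT) mice. It used 6 of the 24 libraries of the series, chosen by tissue and genotype: 3 KO brains and 3 WT brains. Of 19015 genes in the table, 14385 passed the filter on low counts and were tested. All mice were female, aged 12 weeks on a normal diet. Both groups were perfused with phosphate-buffered saline, and the brains were then frozen. The labels give 3 mice per genotype, and the other 18 libraries come from the liver and from the fat depots labelled IAT and BAT (inguinal white and brown fat). No source used here names the strain or the design of the deletion, so a difference of genetic background between the groups and the deletion itself cannot be told apart.

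Prxl2a encodes peroxiredoxin-like 2A, a small protein with a thioredoxin-like fold and a redox-active cysteine pair, known as an antioxidant in bone and fat cells. The brain is a mixture of regions, and each has neurons with transcripts of their own: medium spiny neurons of the striatum express dopamine receptors, relay neurons of the thalamus express Tcf7l2, and the choroid plexus secretes transthyretin. When pieces of brain differ in how much of each region they hold, such transcripts differ between libraries whatever the genotype. In bulk RNA, fewer cells of a type and less RNA per cell cannot be told apart.

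The brain libraries held 15788269 to 17293213 counts each. Within a genotype, log2 expression correlated at 0.979 to 0.986 among KO brains and at 0.975 to 0.986 among WT brains. All 6 libraries had the markers of neurons, astrocytes and myelin in abundance, led by Snap25, Slc1a2 and Mbp. Values are given below in CPM, counts scaled to an equal library total. Of 11 hindbrain markers 10 stayed under 1 CPM in every library, as did 7 of 7 pituitary markers. Of 14 cerebellum markers 4 stayed under 1 CPM in every library. Pcp2 of Purkinje cells reached at most 0.436 CPM and Gabra6 of granule cells 3.05 CPM, but Zic1 reached 92.8 CPM and Neurod1 25.6 CPM. The summed cerebellum markers ranged from 59.1 to 182 CPM. The libraries labelled brain thus held few transcripts of the hindbrain, while the cerebellum markers differed widely from each other.

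The deleted gene was low in every KO brain. Prxl2a had 5.35, 5.53 and 6.34 CPM in KO brains 1, 2 and 3, against 108, 84.1 and 119 CPM in WT brains 1, 2 and 3. The log2 fold change (KO over WT) was -4.17 (SE 0.16, edgeR adjusted p = 0.000131, n = 3 per group). The gene lies on chromosome 14 at 40993735 to 41013833 (GRCm38). Per length, Prxl2a averaged 10.1 ± 1.14 TPM (a unit scaled for transcript length) in KO brains and 184 ± 34.3 TPM in WT brains (SD, n = 3 each). Its paralog Prxl2b was at 202 ± 7.77 TPM in KO brains and 185 ± 13.2 TPM in WT brains, close to the WT level of Prxl2a. Prxl2c was far lower, at 13.8 ± 1.09 TPM in KO brains and 11.3 ± 1.24 TPM in WT brains. Its log2 fold change was 0.28 (SE 0.12), which did not pass.

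Across the 14385 genes, edgeR called 7 at an adjusted p under 0.05, or 0.0487% of those tested. Of these, 2 rose in KO brains (0.0139%) and 5 fell (0.0348%). At an unadjusted p under 0.05 there were 946 genes (6.58%), 494 higher (3.43%) and 452 lower (3.14%) in KO brains. For 1801 genes (12.5%) every KO brain lay on the same side of every WT brain, above for 940 (6.53%) and below for 861 (5.99%). The median log2 fold change over all genes was -0.0015, and 49.6% of genes had higher values in KO brains.

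Wdfy1, an endosomal protein that binds phosphatidylinositol 3-phosphate (PI3P), rose. It had 76.7, 58.8 and 71.8 CPM in KO brains and 32.6, 30.4 and 29.3 CPM in WT brains, a log2 fold change of 1.17 (SE 0.12, edgeR adjusted p = 0.0314). The lowest KO brain was well above the highest WT brain. Nnt, the transhydrogenase of the inner mitochondrial membrane that makes NADPH from NADH, also rose. It had 39.8, 42.4 and 40.1 CPM in KO brains and 22.6, 22.0 and 24.5 CPM in WT brains, a log2 fold change of 0.82 (SE 0.09, edgeR adjusted p = 0.0445). Its 3 values within each genotype lay close together. Wdfy1 lies on chromosome 1 at 79702262 to 79776143 and Nnt on chromosome 13 at 119335527 to 119409257.

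The other genes that fell were 3 gene models of chromosome 4 and Entpd4b. Gm29804, a transcribed pseudogene on chromosome 4 at 41890443 to 41893163, had 5.54, 7.23 and 6.72 CPM in KO brains and 90.7, 129 and 72.6 CPM in WT brains (log2 fold change -3.91, SE 0.24, edgeR adjusted p = 0.00194). LOC100041599 and LOC100041593, gene models assigned to chromosome 4, were nearly absent from KO brains. LOC100041599 had 11, 7 and 3 counts in KO brains against 910, 1510 and 618 counts in WT brains (edgeR adjusted p = 0.00290). LOC100041593 had 0, 1 and 1 counts in KO brains against 226, 357 and 139 counts in WT brains (edgeR adjusted p = 0.00512). From the summed and scaled counts, the WT level of LOC100041593 was 346 times the KO level, with an exact 95% interval of 95.4 to 2863 for counting error only. The chemokine gene Ccl21b, also on chromosome 4 at 42173120 to 42256825, had 0, 7 and 0 counts in KO brains against 162, 310 and 142 counts in WT brains. It did not pass (edgeR adjusted p = 0.0627). These genes lie in or are assigned to a chromosome with duplicated chemokine genes, so how reads were divided among copies is uncertain. In all 4 of these genes WT brain 2 was the highest library and WT brain 3 the lowest of the WT group.

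**Figure D1:**
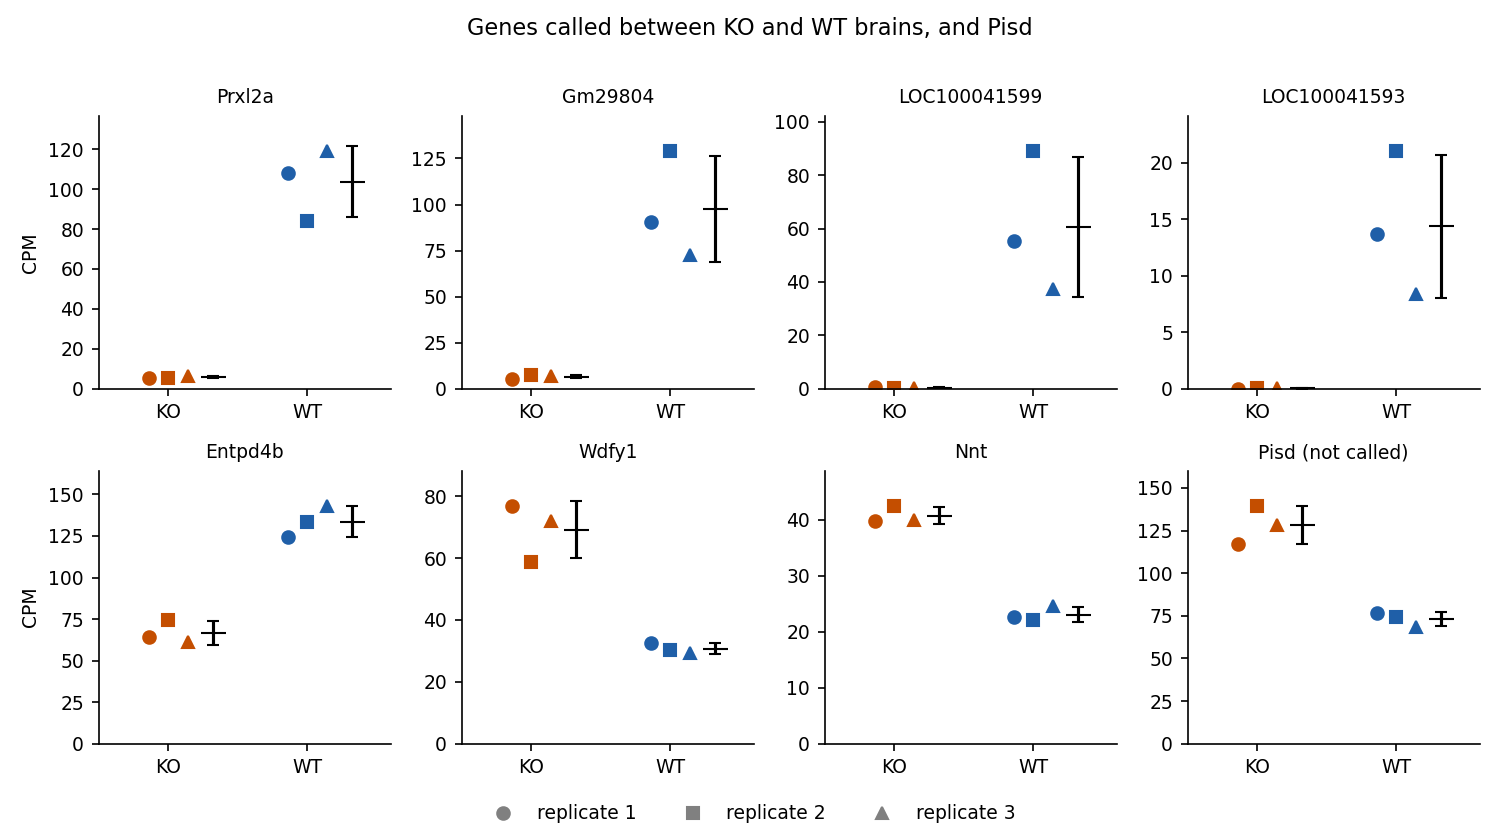
CPM of the 7 called genes and of Pisd, which was not called, in each KO and WT brain. Symbols mark the replicates, and bars show the mean and SD (n = 3 per group); the KO and WT libraries do not overlap in any of the 8 panels.

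Entpd4b, a copy of the Golgi and lysosomal nucleoside diphosphatase gene Entpd4, fell. It had 64.1, 74.7 and 61.1 CPM in KO brains and 124, 134 and 143 CPM in WT brains (log2 fold change -1.004, SE 0.10, edgeR adjusted p = 0.0340). Its coding sequence of 1839 bases has 0 differences from that of Entpd4, so how reads were divided between the copies is uncertain. Entpd4 itself was listed at 0, 0 and 3.26 CPM in KO brains and at 12.7, 3.12 and 0 CPM in WT brains. Their sum does not depend on that division: it was 64.1, 74.7 and 64.4 CPM in KO brains and 137, 137 and 143 CPM in WT brains, a ratio of 0.488.

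Several named genes that did not pass also have copies, among them Ccl21b. For Srp54b and Tmem254c the copies could be summed. Srp54b encodes the GTPase subunit of the signal recognition particle, which brings ribosomes to the endoplasmic reticulum. It had 93.8, 74.8 and 70.9 CPM in KO brains and 122, 123 and 129 CPM in WT brains (log2 fold change -0.64, SE 0.12, edgeR adjusted p = 0.346). Srp54a has the same 1512 coding bases, and Srp54c differs at 6 of them. The stretch from coding base 906 to 965 (chromosome 12, sense strand, GENCODE transcripts of GRCm38) shows how little separates the copies, with the 3 bases that differ in capitals:
Srp54b: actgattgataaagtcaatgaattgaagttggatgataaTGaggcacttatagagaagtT
Srp54a: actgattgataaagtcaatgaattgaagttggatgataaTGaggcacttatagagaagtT
Srp54c: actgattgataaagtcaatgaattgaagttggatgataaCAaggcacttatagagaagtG
The sum of the 3 copies was 261, 229 and 213 CPM in KO brains and 286, 297 and 297 CPM in WT brains, a ratio of 0.80. Srp54a alone averaged 75.2 ± 1.64 CPM in KO brains and 80.7 ± 5.07 CPM in WT brains (SD, n = 3 each). For Tmem254c, whose 387 coding bases are shared with Tmem254a and Tmem254b, the sum was 23.0, 26.7 and 21.8 CPM in KO brains and 33.6, 41.6 and 45.3 CPM in WT brains, a ratio of 0.594. For Tmem254c alone the log2 fold change was -2.10 (SE 0.36), which did not pass.

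Among the other genes with higher values that did not pass, Pisd had the smallest p. It encodes the mitochondrial decarboxylase that turns phosphatidylserine into phosphatidylethanolamine. Pisd had 117, 139 and 128 CPM in KO brains and 76.8, 74.6 and 68.7 CPM in WT brains (log2 fold change 0.81, SE 0.09, edgeR adjusted p = 0.0620). Tmem181a had 399.8, 454 and 505 CPM in KO brains and 246, 262 and 264 CPM in WT brains (log2 fold change 0.82, SE 0.11). RefSeq lists pseudogenes named after Pisd and after Tmem181a, whose reads are not analysed here, so the values of both genes are uncertain. Plin4, a coat protein of lipid droplets, stood at 42.8, 35.6 and 50.6 CPM in KO brains and at 23.6, 18.7 and 24.2 CPM in WT brains (0.96, SE 0.16). Cd59a, an inhibitor of the complement membrane attack complex, had 10.96, 9.12 and 8.04 CPM in KO brains and 5.09, 5.07 and 3.88 CPM in WT brains (1.0004, SE 0.19). Zbtb16, a zinc finger transcription factor, had 124, 109 and 128 CPM in KO brains and 50.0, 72.0 and 78.5 CPM in WT brains (0.85, SE 0.17). The remaining 7 of the 12 named were Rskr (0.96) and its neighbour on chromosome 11 Spag5 (0.94), Dcdc2a (0.71), Rnd1 (0.58), Net1 (0.65), Tcp11l1 (0.40) and Smim3 (0.74), all as log2 fold changes. Groups that do not overlap were part of the rule that named these genes, so that is no finding.

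Of the 12 named genes with lower values that did not pass, Bex1 and Bex2 are X-linked genes of neurons whose products belong to a family of small adaptor-like proteins. Bex1 had 22.9, 19.4 and 24.9 CPM in KO brains and 43.7, 36.5 and 45.0 CPM in WT brains (log2 fold change -0.90, SE 0.13, edgeR adjusted p = 0.164). Bex2 had 121, 123 and 119 CPM in KO brains and 191, 160.1 and 190.1 CPM in WT brains (-0.58, SE 0.09). The rest of their family also had lower values: the BEX and TCEAL list had lower values in 10 of 10 tested genes, with a median of -0.27, and 0 were called. In 6 of the 10, all KO brains were below all WT brains, against 5.99% of all genes. Bex1 and Bex2, named for not overlapping, are among these 6. The list was chosen with earlier results of these data known, so this count is only a description. Tceal8 had 41.6, 37.2 and 39.4 CPM in KO brains and 53.2, 48.5 and 51.1 CPM in WT brains (-0.37, SE 0.09). Wnt7b, a Wnt ligand of cortical neurons, had 24.03, 25.5 and 24.5 CPM in KO brains and 53.7, 35.6 and 53.9 CPM in WT brains (-0.95, SE 0.16). The others were Ano2 (-1.61), a calcium-activated chloride channel, the kinase Cdk18 (-0.85), the protocadherin Pcdhga8 (-0.78), the RNA polymerase subunit Polr2k (-0.64), the cadherin Cdh9 (-0.67) and Filip1 (-1.82).

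Region content differed between single libraries of the same genotype. For each region, a score was taken as the mean log2 CPM of its marker genes that passed the filter. The striatum score was 4.12, 5.93 and 3.80 in KO brains 1, 2 and 3 and 6.43, 6.39 and 4.14 in WT brains 1, 2 and 3. KO brain 2 therefore stood with WT brains 1 and 2, and WT brain 3 with the other KO brains. The thalamus score was 5.32 in KO brain 1 and lay between 3.18 and 3.40 in the other 5 libraries. The olfactory bulb score was 3.47 in WT brain 1 and between 0.43 and 1.12 in the others. The choroid plexus score was 2.24, 0.05 and 1.26 in KO brains and 1.38, 1.22 and 3.34 in WT brains, with WT brain 3 highest. The hippocampus score was 4.65, 1.87 and 3.38 in KO brains and 2.27, 2.20 and 4.52 in WT brains, so that KO brain 1 and WT brain 3 were high together. The cerebral cortex score varied least of these, with 6.50, 6.84 and 6.77 in KO brains and 6.21, 6.76 and 6.41 in WT brains.

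**Figure D2:**
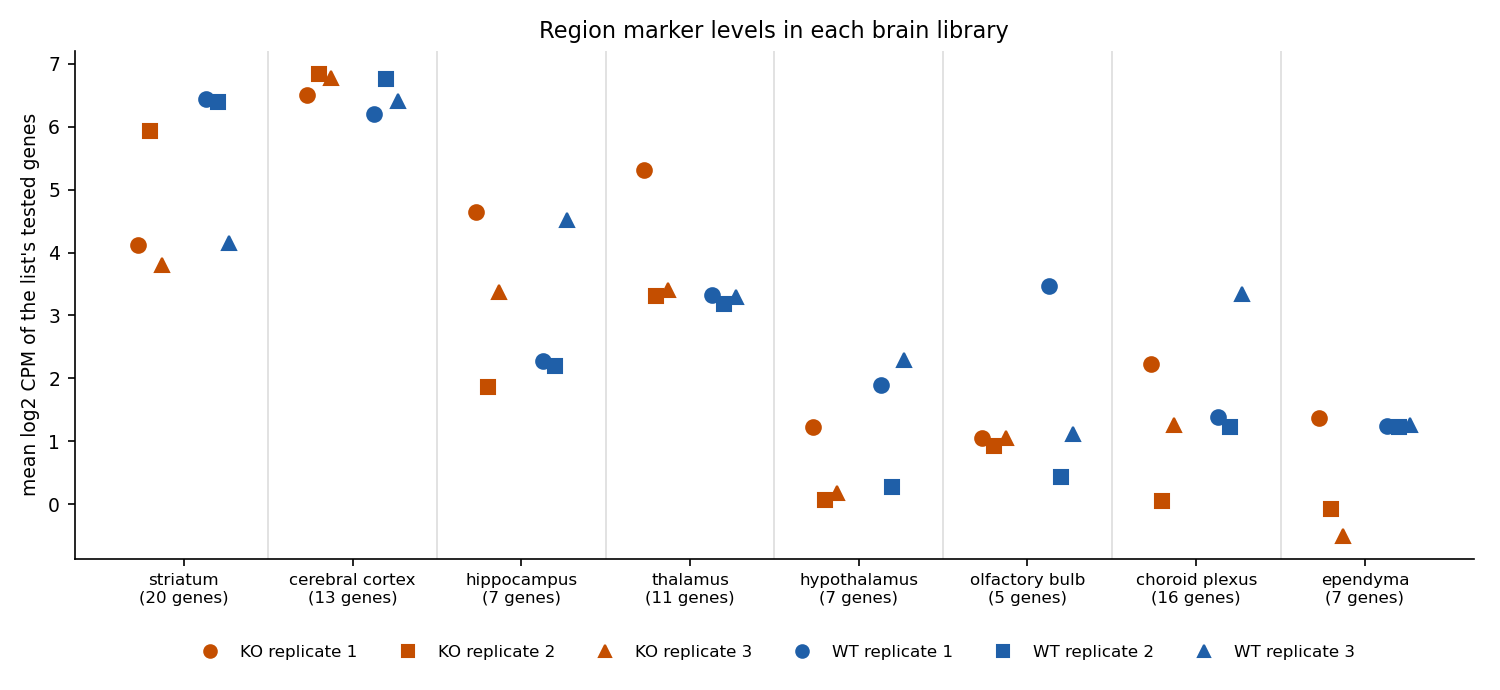
Region scores (mean log2 CPM of each list's tested marker genes) in the 6 brain libraries, KO left of WT within each region. The thalamus score stands out in KO brain 1, the olfactory bulb score in WT brain 1 and the choroid plexus score in WT brain 3, while the striatum score is low in KO brains 1 and 3 and WT brain 3.

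Single genes show how wide these gaps were. Adora2a, the adenosine receptor of indirect-pathway medium spiny neurons, had 1.24, 25.7 and 2.26 CPM in KO brains and 35.6, 40.9 and 1.03 CPM in WT brains. Penk, the enkephalin precursor of the same cells, had 19.5, 129.5 and 22.9 CPM in KO brains and 267, 192 and 36.4 CPM in WT brains. Both genes were high in KO brain 2 and low in WT brain 3, and the groups overlapped. Tcf7l2, a transcription factor of thalamic relay neurons, had 68.1, 3.77 and 5.34 CPM in KO brains and 6.12, 4.77 and 5.57 CPM in WT brains. Slc17a6, the vesicular glutamate transporter of subcortical neurons, had 169.9, 22.7 and 48.9 CPM in KO brains and 26.3, 15.6 and 37.5 CPM in WT brains. KO brain 1 was far above the other libraries for these 2 thalamic genes. For Slc17a6, KO brain 3 was also above every WT brain, and the log2 fold change without KO brain 1 was 0.44. Ttr, the thyroid hormone carrier secreted by the choroid plexus, had 115, 2.45 and 62.2 CPM in KO brains and 22.1, 57.3 and 473 CPM in WT brains. Cdhr1, a cadherin of mitral and tufted cells of the olfactory bulb, had 7.28, 2.95 and 2.57 CPM in KO brains and 43.0, 2.89 and 9.93 CPM in WT brains.

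As groups, the region lists and the ependyma list had no called gene, and their medians ranged widely. The striatum list had lower values in 20 of 20 genes (median -0.86), with 0 called and 0 without overlap between the groups. The thalamus list had higher values in 11 of 11 (median 1.05), with 0 called and 3 without overlap, against 12.5% of all genes. The choroid plexus list had lower values in 15 of 16 (median -1.14), the hypothalamus list in 6 of 7 (median -1.17), the ependyma list in 7 of 7 (median -0.83) and the olfactory bulb list in 5 of 5 (median -1.61), with 0 called in each. Medians were nearer to 0 in the cerebral cortex list (0.30, 9 of 13 higher), the cerebellum list (0.25, 7 of 8 higher), the midbrain dopamine neuron list (0.23, 4 of 5 higher) and the hippocampus list (0.18, 4 of 7 higher). The hindbrain and pituitary lists had 1 gene tested each, at 0.64 and -0.09. The medians moved with single libraries, some across 0 and others in size only. With each library left out in turn, the hypothalamus median ranged from -2.27 to -0.68 and the ependyma median from -1.73 to -0.49. The thalamus median was 0.32 without KO brain 1. The choroid plexus median was 0.18 without WT brain 3 and -1.97 without KO brain 1. The olfactory bulb median was -0.15 without WT brain 1. The striatum median was -1.76 without KO brain 2, and -0.67 without WT brain 1. The ependyma list was the exception in its pattern: its score was 1.38, -0.07 and -0.50 in KO brains and 1.24, 1.23 and 1.27 in WT brains, so the low libraries were KO brains 2 and 3.

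The same libraries decided the fold changes of single region genes. Tcf7l2 had a log2 fold change of 2.23 with all libraries and -0.27 without KO brain 1. Ttr had -1.62 with all libraries and 0.60 without WT brain 3. Cdhr1 had -2.12 with all libraries and -0.58 without WT brain 1. Adora2a had -1.41 with all libraries and -3.88 without KO brain 2. Drd1, the dopamine receptor of direct-pathway neurons, kept a value of -1.03 or below in each of 6 leave-out fits, as did the striatal receptor gene Gpr6 at -1.20 or below. Drd1 had 8.53, 32.3 and 7.47 CPM in KO brains and 57.5, 51.2 and 16.5 CPM in WT brains, and the groups overlapped.

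Of all 14385 genes, 219 had a log2 fold change of at least 1 in size, 52 higher and 167 lower in KO brains. The groups overlapped in 138 of them. Among the 72 with a mean of at least 5 CPM, 12 were higher and 60 lower, and 46 overlapped. Only 22 of these 72 kept a log2 fold change of at least 1 in each of the 6 fits that left out 1 library, 1 higher (Wdfy1) and 21 lower. Region list genes made up 19 of the 72, and 2 of those 19 (Drd1 and Gpr6) were kept. Leaving out KO brain 1 took 22 genes under that size, WT brain 1 took 21, WT brain 3 took 18, KO brain 3 took 15, WT brain 2 took 9 and KO brain 2 took 5. Some genes outside the lists were also high in a single library. Abi3bp, a matrix protein gene, had 8.90, 11.002 and 15.1 CPM in KO brains and 143, 14.7 and 9.45 CPM in WT brains, high in WT brain 1 alone. Nr2f2, a nuclear receptor gene, had 10.3, 9.87 and 11.9 CPM in KO brains and 8.19, 7.07 and 51.4 CPM in WT brains, high in WT brain 3 alone. These 2 genes were named after their values were seen.

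**Figure D3:**
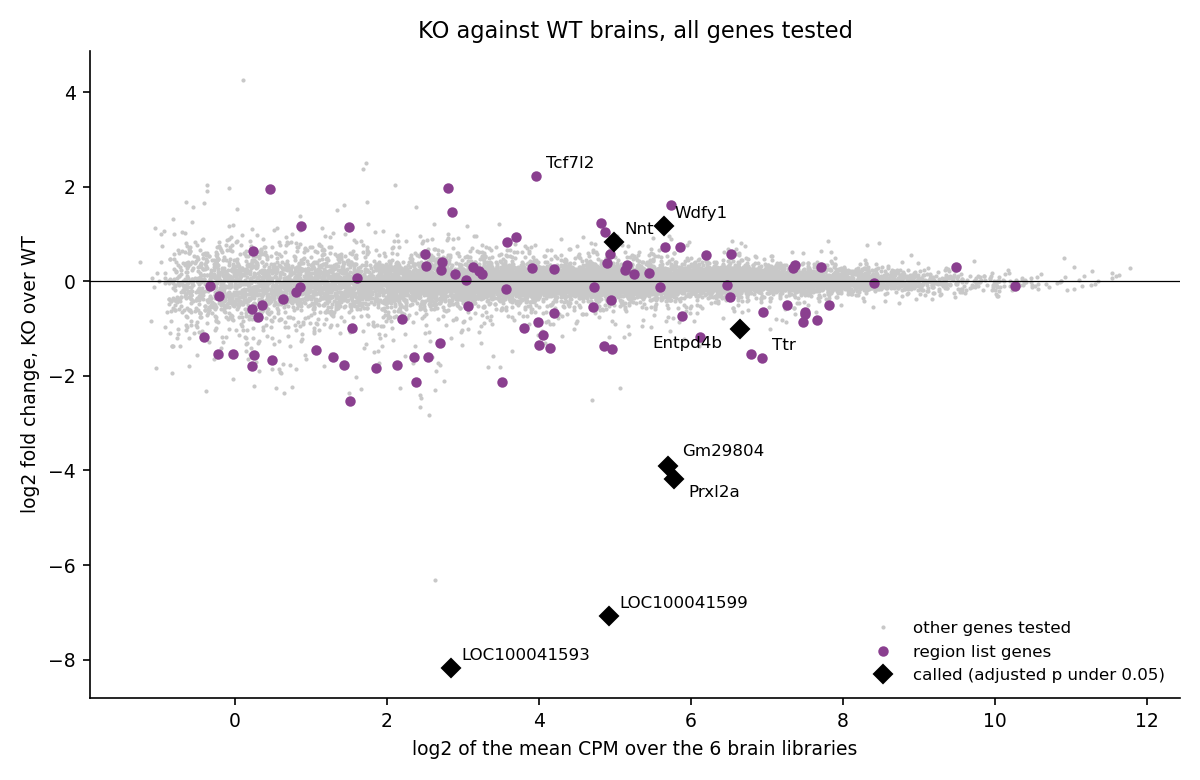
Log2 fold change (KO over WT) of the 14385 genes tested against the log2 of their mean CPM over the 6 brain libraries. Diamonds are the 7 called genes and filled circles the region list genes, among which none was called although Tcf7l2 lies at 2.23 and Ttr at -1.62.

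The called and other named genes were refitted without each of the 6 libraries and with each of 5 region scores as a covariate (striatum, choroid plexus, hypothalamus, thalamus and olfactory bulb). They had been chosen on these same libraries for a small p, and the uncalled ones also for groups that do not overlap, so steadiness over these fits was largely set by that choice and is given as a description. All 7 called genes kept their direction in all 11 fits, and their log2 fold change stayed within 1.5 times its value. Of the named genes that did not pass, the 12 higher and 10 of the 12 lower ones had the same, the exceptions in size being Ccl21b and Filip1. The 94 region list genes tested were not chosen by p; 39 of them kept their direction in the 11 fits and 3 stayed within 1.5 times. The sets cannot be compared for that reason, and because many region list genes are part of the scores used as covariates. Wdfy1 ranged from 1.09 to 1.27 over the leave-out fits and from 1.07 to 1.23 over the fits with a score, Nnt from 0.79 to 0.87 and from 0.81 to 0.85, and Entpd4b from -1.09 to -0.94 and from -1.04 to -0.97. Calls were less stable than sizes. A fit with 5 libraries has fewer degrees of freedom, and why the number of calls changed was not tested. edgeR called 1 gene without KO brain 1 and 1 without KO brain 3, Prxl2a in both cases. It called 5 without KO brain 2 and 4, 9 and 4 without WT brains 1, 2 and 3, and 4 of the 7 were among them each time. Nnt and Entpd4b were called in 0 of the 6 leave-out fits and Wdfy1 in 1. Of the 5 fits with a score, Wdfy1 was called in 2 and Entpd4b and Nnt in 1 each. With the striatum score the adjusted p was 0.0604 for Wdfy1, 0.0582 for Entpd4b and 0.114 for Nnt (edgeR).

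**Figure D4:**
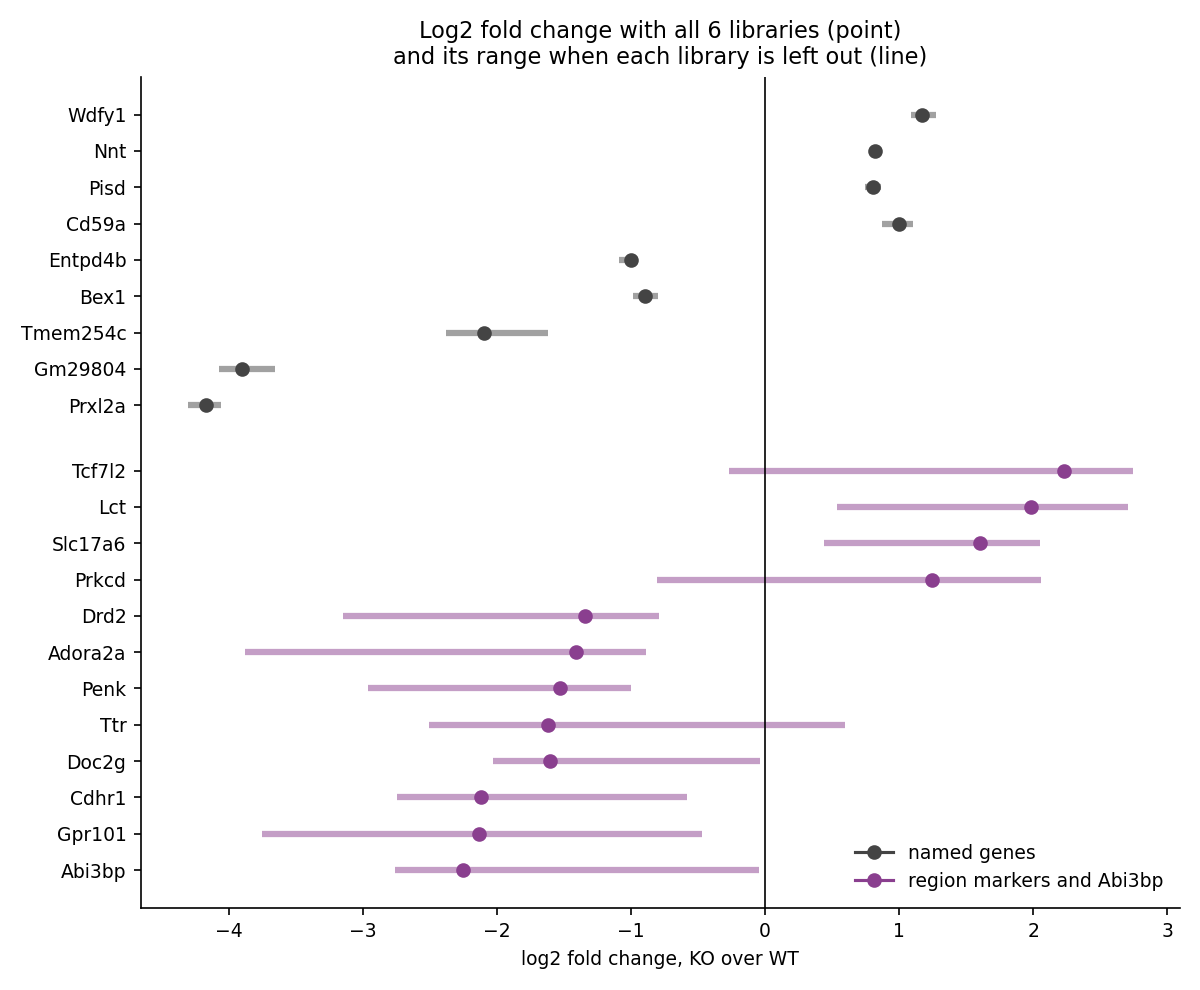
Log2 fold change (KO over WT) with all 6 libraries as a point, and the range over the 6 fits that each leave out 1 library as a line. Nnt, named for its small p, ranges from 0.79 to 0.87, and the region marker Tcf7l2 from -0.27 to 2.74.

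At a fixed genotype, few genes outside the region lists varied with a region score strongly enough to pass. Of 14291 such genes, edgeR called 25 for the striatum score (0.175%), 14 rising with it and 11 falling, and 78 for the choroid plexus score (0.546%), 44 rising and 34 falling. The scores ran largely opposite: within its genotype, KO brain 2 was highest for striatum and lowest for choroid plexus, and WT brain 3 the reverse. With the choroid plexus score, the hippocampus marker Cabp7 rose (edgeR adjusted p = 0.000542) and the striatum marker Ppp1r1b fell (edgeR adjusted p = 0.00493). A slope thus does not assign a gene to a region, and the counts do not describe separate region effects. Of the 7 genes called for genotype, 0 were among them. Those 7 were chosen for a small p, which spread within a genotype works against, so this count was largely set by that choice. Of the 185 genes outside the lists with a log2 fold change of at least 1, 7 were called for either score (3.78%), against 0.651% of all genes outside the lists. The 185 were chosen on the same 6 libraries, and wide spread favours both large fold changes and slopes, so this share is only a description. Cd4, better known as a marker of T cells, rose with the striatum score by 1.89 on the log2 scale per unit of score (edgeR adjusted p = 0.00698). It had 0.56, 7.54 and 0.63 CPM in KO brains and 8.85, 13.02 and 0.48 CPM in WT brains, while Cd3e, Cd3d and Cd8a reached at most 0.187 CPM. Prss23 had 16.4, 43.3 and 18.1 CPM in KO brains and 40.9, 39.3 and 13.3 CPM in WT brains. Pcp4, a calmodulin regulator abundant in striatum, had 121, 196 and 82.0 CPM in KO brains and 244, 243 and 103 CPM in WT brains, and the orphan receptor gene Gpr52 12.3, 22.5 and 9.42 CPM in KO brains and 38.1, 35.5 and 14.7 CPM in WT brains. With the choroid plexus score rose Gpr161, a receptor of primary cilia, at 46.6, 10.6 and 29.1 CPM in KO brains and 14.8, 9.19 and 55.6 CPM in WT brains, and Lypd1, at 88.3, 36.7 and 64.3 CPM in KO brains and 61.1, 55.7 and 208 CPM in WT brains. The choroid plexus count fell to 1 without WT brain 3 and was 152 without WT brain 1, 7 without KO brain 2, 18 without KO brain 3 and 20 without KO brain 1. The striatum count was 1 without WT brain 3, 4 without KO brain 1, 5 without KO brain 2 and 7 without WT brain 1.

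With the genotype means removed, the first component of the 6 libraries took 43.6% of the variance. Only components 2, 3 and 4 also held variance, with 23.2%, 17.9% and 15.25%. KO brain 2 and WT brain 2 stood at the high end of the first component and KO brain 1 and WT brain 3 at its low end. Adora2a, Scn4b, Drd2 and Penk of the striatum list were among its 20 highest loadings. The hippocampal gene C1ql2 and the choroid plexus genes Ttr, Otx2 and Prlr were among its 20 lowest.

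Of the cell type lists, ependyma and red cells had the medians farthest from 0 (-0.83 and -0.59), and the others lay between -0.16 and 0.11, leaving out lymphocytes, with 1 gene tested (Cd4). Snap25 led the neuron list, in which 5 of 13 genes had higher and 8 lower values (median -0.02). The summed level of these neuron markers was 10770, 12460 and 10320 CPM in KO brains and 10510, 12300 and 10970 CPM in WT brains. Astrocyte markers had higher values in 14 of 17 (median 0.09), with 0 called. The groups did not overlap in 2 of the 17, near the 12.5% of all genes, and these 2 were Gjb6 and Aldh1l1. Gjb6, a gap junction protein of astrocytes, had 102, 96.0 and 125 CPM in KO brains and 72.6, 65.1 and 83.4 CPM in WT brains (log2 fold change 0.54, SE 0.13), and Aldh1l1, a folate enzyme of astrocytes, 71.4, 71.4 and 82.0 CPM in KO brains and 53.5, 59.97 and 60.3 CPM in WT brains (0.37, SE 0.09). Oligodendrocyte markers summed to 5831, 4578 and 6741 CPM in KO brains and 5351, 7250 and 2879 CPM in WT brains, so that WT brain 3 was low. Their median log2 fold change was 0.11 with all libraries and -0.14 without WT brain 3. Microglia markers had lower values in 15 of 17 (median -0.08), with 0 called and 0 without overlap, against 12.5% of all genes. Red cell markers had lower values in 4 of 4 tested genes (median -0.59), with 0 called and 1 without overlap, against 12.5% of all genes. The red cell markers summed to 42.6, 32.0 and 27.6 CPM in KO brains and 61.4, 37.9 and 56.9 CPM in WT brains. GABAergic interneuron markers had higher values in 5 of 12 and lower in 7 (median -0.16), with 0 called and 1 without overlap, against 12.5% of all genes. The gene without overlap was Vip, with 59.3, 62.7 and 76.0 CPM in KO brains and 37.4, 47.5 and 46.3 CPM in WT brains (log2 fold change 0.59, SE 0.13). Slc32a1 of the same list had 41.8, 61.5 and 53.9 CPM in KO brains and 95.5, 74.6 and 55.7 CPM in WT brains (-0.52, SE 0.21).

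The redox lists nearest in function to Prxl2a had medians close to that of all genes. Peroxiredoxins had higher values in 4 of 7 (median 0.06), thioredoxin and glutaredoxin genes in 6 of 13 (median -0.02) and glutathione and NRF2 target genes in 9 of 28 (median -0.05), with 0 called in any of them. Srxn1, the sulfiredoxin that repairs overoxidised peroxiredoxins, had 101, 107 and 96.4 CPM in KO brains and 93.6, 92.5 and 83.3 CPM in WT brains (log2 fold change 0.18, SE 0.09). Of the 17 genes of NADPH supply, Nnt was the only called gene, and the list median was 0.03. Wdfy1 was the only called gene of the 24 in the PI3P and endosome list (median 0.05). Pik3c3, the lipid kinase that makes PI3P, had 93.4, 92.9 and 84.7 CPM in KO brains and 65.4, 76.8 and 62.2 CPM in WT brains (log2 fold change 0.41, SE 0.10), and did not pass.

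Several lists of energy and protein synthesis had small medians in which most members shared a side. Subunits of complex I had lower values in 34 of 37 (median -0.14), subunits of complexes II to V in 36 of 38 (median -0.12) and cytosolic ribosomal proteins in 68 of 78 (median -0.13), with 0 called in each. In the same order, the groups did not overlap in 5, 8 and 11 genes, against 12.5% of all genes. All these lists were lowest in KO brain 1, and without it their medians were -0.05, -0.06 and -0.03. Uqcr10, a subunit of complex III, had 26.2, 41.4 and 41.6 CPM in KO brains and 47.2, 60.3 and 51.1 CPM in WT brains (log2 fold change -0.54, SE 0.19). Rpl23, a protein of the large ribosomal subunit, had 81.0, 89.5 and 97.6 CPM in KO brains and 110.1, 120.1 and 107.6 CPM in WT brains (-0.33, SE 0.10).

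Stress lists pointed both ways. In the integrated stress response list, 20 of 29 had lower values (median -0.13) and 6 did not overlap, against 12.5% of all genes. Atf4, its central transcription factor, had 88.9, 82.9 and 89.2 CPM in KO brains and 111, 112 and 108 CPM in WT brains (log2 fold change -0.34, SE 0.08), and Chac1, a glutathione-degrading target of ATF4, 3.80, 4.02 and 5.09 CPM in KO brains and 6.67, 6.95 and 5.88 CPM in WT brains (-0.59, SE 0.18). In the unfolded protein response list, 15 of 19 had higher values (median 0.12) and 2 did not overlap. Hspa5, the chaperone of the endoplasmic reticulum, had 393, 341 and 329 CPM in KO brains and 268, 275 and 321 CPM in WT brains (0.30, SE 0.11). None of these genes passed.

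Clock genes had higher values in 20 of 23, with a median of 0.17 that ranged from 0.14 to 0.23 over the leave-out fits, 0 called and 6 without overlap, against 12.5% of all genes. Rorb, an orphan nuclear receptor that is also a marker of cortical layer 4 neurons, had 59.6, 86.6 and 70.5 CPM in KO brains and 48.7, 47.8 and 33.9 CPM in WT brains (log2 fold change 0.73, SE 0.18). Arntl, the partner of CLOCK, had 39.5, 39.7 and 36.7 CPM in KO brains and 26.2, 33.5 and 32.9 CPM in WT brains (0.32, SE 0.12). Immediate early genes had higher values in 21 of 27 (median 0.19), but the median was -0.28 without KO brain 3, in which the list stood at 5.98 log2 CPM against 4.72 to 5.48 in the others. Among receptors, the GABA receptor subunit gene Gabra2 had 144, 124 and 127 CPM in KO brains and 83.1, 50.5 and 103 CPM in WT brains (log2 fold change 0.74, SE 0.23). GABA receptor genes had higher values in 8 of 14 (median 0.13), glutamate receptor genes in 7 of 21 (median -0.07) and genes of synaptic vesicle release in 10 of 22 (median -0.01), with 0 called. Cholesterol synthesis genes had a median of -0.06, with 7 of 24 without overlap, against 12.5% of all genes. The median was -0.04 for neuropeptides, with 3 of 17 without overlap, and -0.02 for the interferon response, with 2 of 20.

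**Figure D5:**
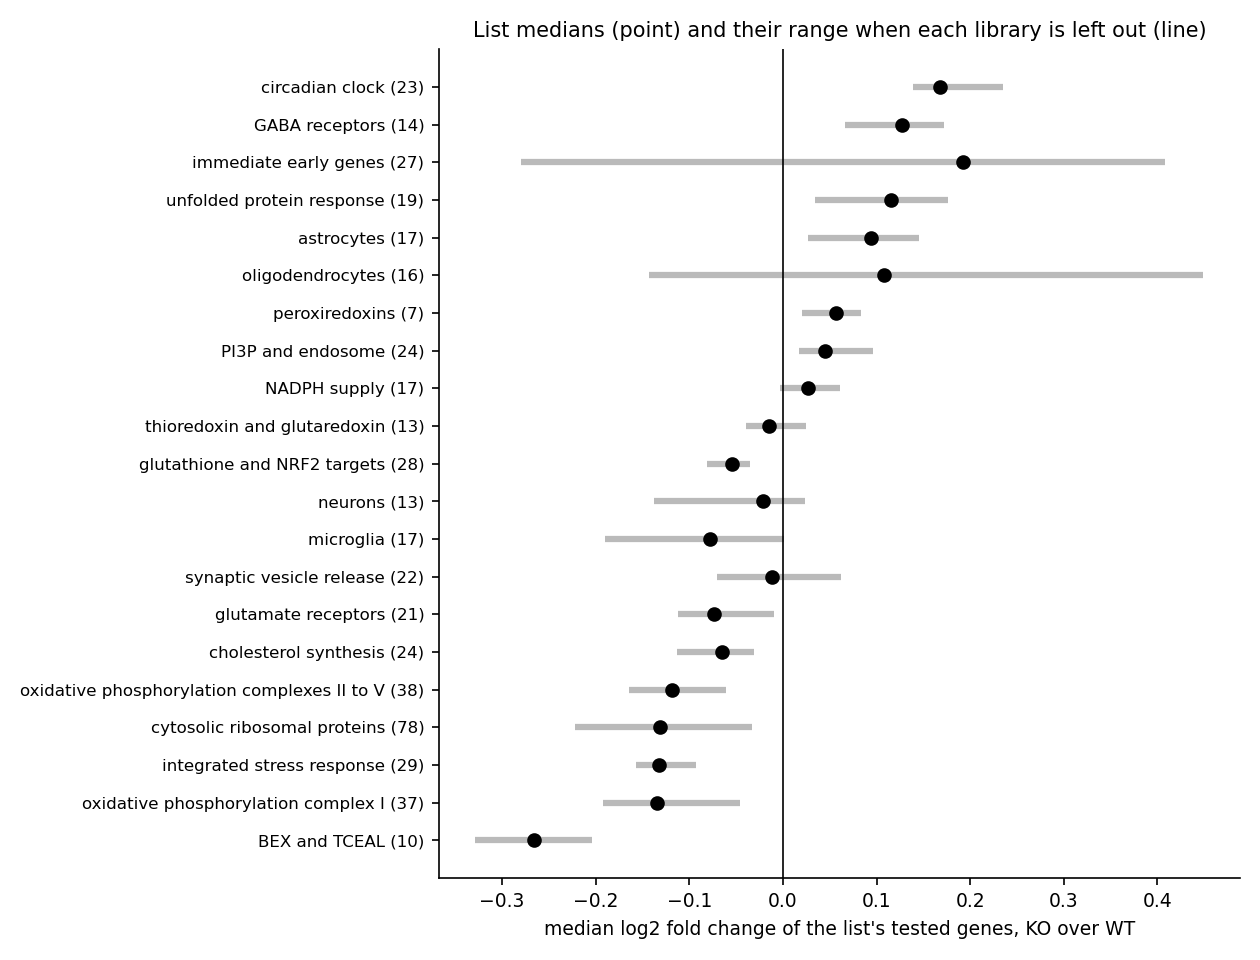
Median log2 fold change (KO over WT) of each list's tested genes as a point, with the number of genes in brackets, and its range when each library is left out as a line. The BEX and TCEAL median stays between -0.33 and -0.20, and the immediate early median spans -0.28 to 0.41.

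Neighbours of the deleted gene on chromosome 14 gave no call. Of 16 tested genes within 5 Mb of Prxl2a, 14 had higher and 2 lower values (median 0.06) and 0 were called. The groups did not overlap in 4 of the 16, against 12.5% of all genes. In all 4 the KO brains were above the WT brains, against 6.53% of all genes. Within 1 Mb, Tspan14 had 38.3, 42.9 and 42.4 CPM in KO brains and 35.3, 43.4 and 39.3 CPM in WT brains, and Sh2d4b 6.47, 9.37 and 7.53 CPM in KO brains and 4.43, 6.01 and 4.36 CPM in WT brains. The overlap differed between them: the Sh2d4b libraries did not overlap and those of Tspan14 did.

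Whether an effect was particular to brain was tested as the difference between the KO effect in brain and the mean KO effect of IAT, BAT and liver. edgeR called 0 of 16169 genes (0%), while 1378 had an unadjusted p under 0.05. Tissues may come from the same mice, in which case their values are not independent, and the fit does not take this up. Some genes had an SE too large for any call, such as 8701 for Slc17a6 and 5773 for Trh. For such genes the test cannot show whether an effect was particular to brain. The smallest adjusted p was 0.0507, shared by 4 genes. The nearest with plain symbols were Pik3c3, with log2 fold changes of 0.40 in brain, 1.596 in IAT, 0.87 in BAT and 1.65 in liver, and the clock repressor Nr1d2, with 0.35 in brain, -0.68 in IAT, -0.63 in BAT and -0.50 in liver. Nr1d2 had 273, 225 and 232 CPM in KO brains and 205, 204 and 162 CPM in WT brains. In the fit of all 24 libraries, all 7 genes called in brain had values on the same side in the other 3 tissues, among them Wdfy1 at 1.16 in brain, 0.80 in IAT, 1.22 in BAT and 0.64 in liver, and Nnt at 0.82, 1.21, 0.50 and 1.64 in the same order. Of the named genes that did not pass, this held for 3 of the 12 higher and 5 of the 12 lower ones. For Pisd, the value was 0.80 in brain and 0.23, 0.38 and 0.11 in IAT, BAT and liver, and the test of this difference did not pass (edgeR adjusted p = 0.0745).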

How the data were processed

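RNA was extracted with RNeasy columns and made into libraries with an mRNA-seq kit, per the labels' protocols. The deposited table gives expected counts per gene and library, estimated by the authors and not normalised, and TPM values scaled by the authors within each library. The submitters' processing notes name RSEM 1.3.1, Bowtie2 2.3.4.3, DESeq2 1.4.5 and the build GRCm38.p6. A further 48 of 96 per-sample columns were left unused. Replicates are separate mice by the design text.

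Expected counts were rounded to whole numbers (9.09% of brain values were not whole), filtered with filterByExpr, scaled by TMM and tested with edgeR 4.0.16 (quasi-likelihood F-test, R 4.3.3) over the 6 brain libraries, with Benjamini-Hochberg adjustment over all genes tested and calls under 0.05. Fold changes are log2, KO over WT; CPM values are TMM-scaled; log2 CPM scores use a prior count of 2. Named genes were Prxl2a, all called genes, the 12 uncalled genes of smallest p on each side with a mean of at least 5 CPM, a plain symbol and no overlap, up to 4 members per list with at least 2 CPM (for region lists, the 6 most abundant), leading slope and tissue-difference genes, and near-identical copies. Adora2a, Penk, Drd1, Gpr6, Drd2 and Otx2 were named outside this rule, after their values were seen. Members and lists were chosen with earlier results of these data known. limma 3.58.1 and DESeq2 1.42.0 were alternatives. The procedure was tested on simulated data without region differences, with 66 genes changed at each size. It recovered 66 at 4 fold, 47 at 2 fold and 17 at 1.5 fold, with 6 false calls. Changes of 1.5 fold were thus mostly missed, so 0 called does not show that small changes were absent. RefSeq positions matched 18958 of 19015 gene IDs. Counting intervals cover counting error only.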

Additional observations from a re-analysis of the deposited data

How the results depend on the processing

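The 7 calls stayed 7 with RLE scaling and with a 1 CPM filter, and were 9 with no filter and 8 with a robust prior, all 7 included. On log2 TPM there were 9 and 8 (pseudocounts 1 and 0.1), with 5 of the 7 in each, and with all 24 libraries in the fit 10, with 6 of the 7. DESeq2 called 56 (27 higher, 29 lower) and limma-voom 2. With a region score as covariate the count was 7 for striatum, 24 for choroid plexus, 11 for hypothalamus, 0 for striatum and choroid plexus together (980 at an unadjusted p under 0.05, with fewer residual degrees of freedom), 1 for thalamus and 4 for olfactory bulb; the last 2 were chosen after seeing the data. Leaving out single libraries gave 1 to 9. The replicate block gave 4 calls; KO and WT libraries of the same number had residual correlations of 0.0415, 0.394 and 0.101, so the numbers were not taken to pair the mice. Slope counts ran from 1 to 32 for striatum and from 1 to 152 for choroid plexus over the leave-out fits. The test of brain against the other tissues gave 5 with RLE, 4 with a 1 CPM filter, 0 to 7 over leave-out fits and, chosen after seeing the data, 3 with animal as a replicate block and 24 without IAT. Signs turned for Ttr (0.065 with the choroid plexus score, and -2.51 to 0.60 over the leave-out fits). They also turned for Tcf7l2 (-0.45 with the thalamus score, and -0.27 to 2.74 over the leave-out fits). Ttr and Tcf7l2 are each part of the score given, so a shift with that score is partly built in. With the striatum and choroid plexus scores together, signs turned for Cdhr1 (0.96), Asns (0.12) and Per2 (-0.17). Those scores ran largely opposite within a genotype, so the fit with both separates them poorly, which also limits its count of 0 calls. The cause was not tested.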

Other observations

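A group of genes known to respond to glucocorticoids, chosen after values such as those of Plin4 and Zbtb16 were seen, had higher values in 23 of 24 tested genes (median log2 fold change 0.32, against -0.0015 over all genes), with 0 called. In 5 of the 24 all KO brains were above all WT brains, against 6.53% of all genes. Because it was chosen on these values it has no test. Its median ranged from 0.22 to 0.37 over the fits that leave out 1 library. Tsc22d3, the glucocorticoid-induced leucine zipper, had 143, 144 and 180.3 CPM in KO brains and 108, 114 and 118 CPM in WT brains. Klf9, a zinc finger factor, had 385, 423 and 363 CPM in KO brains and 293, 351 and 267 CPM in WT brains. Fam107a had 475, 593 and 664 CPM in KO brains and 474, 417 and 428 CPM in WT brains. Fkbp5, the immunophilin that feeds back on the receptor, had 73.5, 76.8 and 73.4 CPM in KO brains and 58.1, 37.5 and 75.7 CPM in WT brains, and overlapped. Per1, which is also a clock gene, had 103, 123 and 166 CPM in KO brains and 146, 125 and 108 CPM in WT brains, without a common direction.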
